A study of Mus musculus with 1183 samples.

Results

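Ccl5, Ccl17, Ccl22, Fscn1, Cd83, Cd40, Cd274, Socs2, H2-M2 and Apol7c were followed across the immune cells of the newborn mouse lung. The 10 genes were picked by name from the 18072 genes of the count table, because earlier results on these cells placed them with the mature state of dendritic cells in the class labelled DC III. Their levels in DC III against DC I and DC II therefore chose them and are given as a description, with no test. The cells were taken from distal lung at postnatal day 7, from 1 female and 1 male mouse. Both had been exposed to hyperoxia, an excess of oxygen that serves as a model of injury to the developing lung. No cells kept at normal oxygen were analysed here. Each of the 1183 samples was 1 cell sorted into a well and sequenced after Tn5 transposition, with 598 cells from the female and 585 from the male. The labels give 16 cell subtypes, among them 40 DC I cells (16 female, 24 male), 25 DC II cells (11 female, 14 male) and 22 DC III cells (11 female, 11 male). The animal is the replicate, and cells of 1 animal are not independent.

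Dendritic cells take up antigen in tissue and, once they mature, migrate to lymph nodes and present it to T cells. On maturation they bundle their actin, gain the lymph node homing receptor Ccr7, raise costimulatory and inhibitory surface proteins and secrete chemokines that draw T cells. The 10 genes cover these functions: chemokines (Ccl5, Ccl22, Ccl17), the cytoskeleton (Fscn1), surface proteins read by lymphocytes (Cd83, Cd40, Cd274), a brake on cytokine signalling (Socs2), an MHC class I-like gene (H2-M2) and a gene of the apolipoprotein L family (Apol7c).

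Depth ran from 16753 to 7560179 reads per cell, with a median of 1100966, and the DC III libraries summed per animal held 10037071 (female) and 15656380 (male) reads. Of the female DC III cells, 2 came from a plate whose label names the gate mesench and not CD45, the surface protein of blood-derived cells; all other DC I, DC II and DC III cells came from CD45 plates. The DC III label was compared with marker lists. Ccr7, Relb, Cacnb3 and Cd74 each reached 50 CPM, the reads per 1000000 reads of the cell or summed library, in 22 of 22 DC III cells, Flt3, a growth factor receptor of dendritic cells, in 14 and H2-Ab1 in 11. The dendritic cell markers Zbtb46 and Itgax reached it in 7 and 0 cells, and Il4i1, a usual marker of mature dendritic cells, in 1. Flt3, Zbtb46, Itgax, H2-Ab1 and Cd74 together summed to 3218 CPM (female) and 4180 CPM (male) in DC III. That list was higher in DC I (31028 and 32339 CPM), in DC II (28535 and 26884 CPM) and in B cells (5338 and 7646 CPM). Of the markers of the first branch of conventional dendritic cells (cDC1), Irf8 reached 50 CPM in 18 cells, Xcr1 and Clec9a in 1 cell each with reads in 3, and Naaa had 0 reads in all 22. These 4 genes summed to 592 and 949 CPM in DC III, against 9341 and 8628 CPM in DC I and 1289 and 1262 CPM in DC II. Of the 5 markers of the other branch (cDC2), Cd209a and Mgl2 had 0 reads in all 22 cells and Irf4 reached 50 CPM in 2, and the list summed to 46.2 and 0.958 CPM. Of the other cell types, the lists for NK cells, macrophages, neutrophils, mast cells, basophils, platelets, epithelium, mesenchyme and endothelium each summed to at most 21.9 CPM. The T cell list summed to 0.0996 CPM (female) and 70.8 CPM (male), and the B cell list to 0.0996 and 102.6 CPM. In the male these reads came with 1 cell that held Cd3d at 486, Cd3g at 234.1, Lck at 178.5, Cd79a at 545, Cd79b at 300.6 and Ms4a1 at 436 CPM. No pair of cells in the series had identical counts.

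Of the 10 genes, 7 had both DC III libraries above every other summed library of the series: Ccl5, Ccl22, Fscn1, Cd83, Cd40, H2-M2 and Apol7c. Among all 15600 genes that passed the filter on low counts, 2.54% showed that pattern, and nothing is read from the difference because the pattern chose the genes. Ccl17, Cd274 and Socs2 did not show it. Ccl17 was highest in DC II and Socs2 in mast cells, and Cd274 in DC III overlapped with Mac II, Mac III and Mac V.

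**Figure D1:**
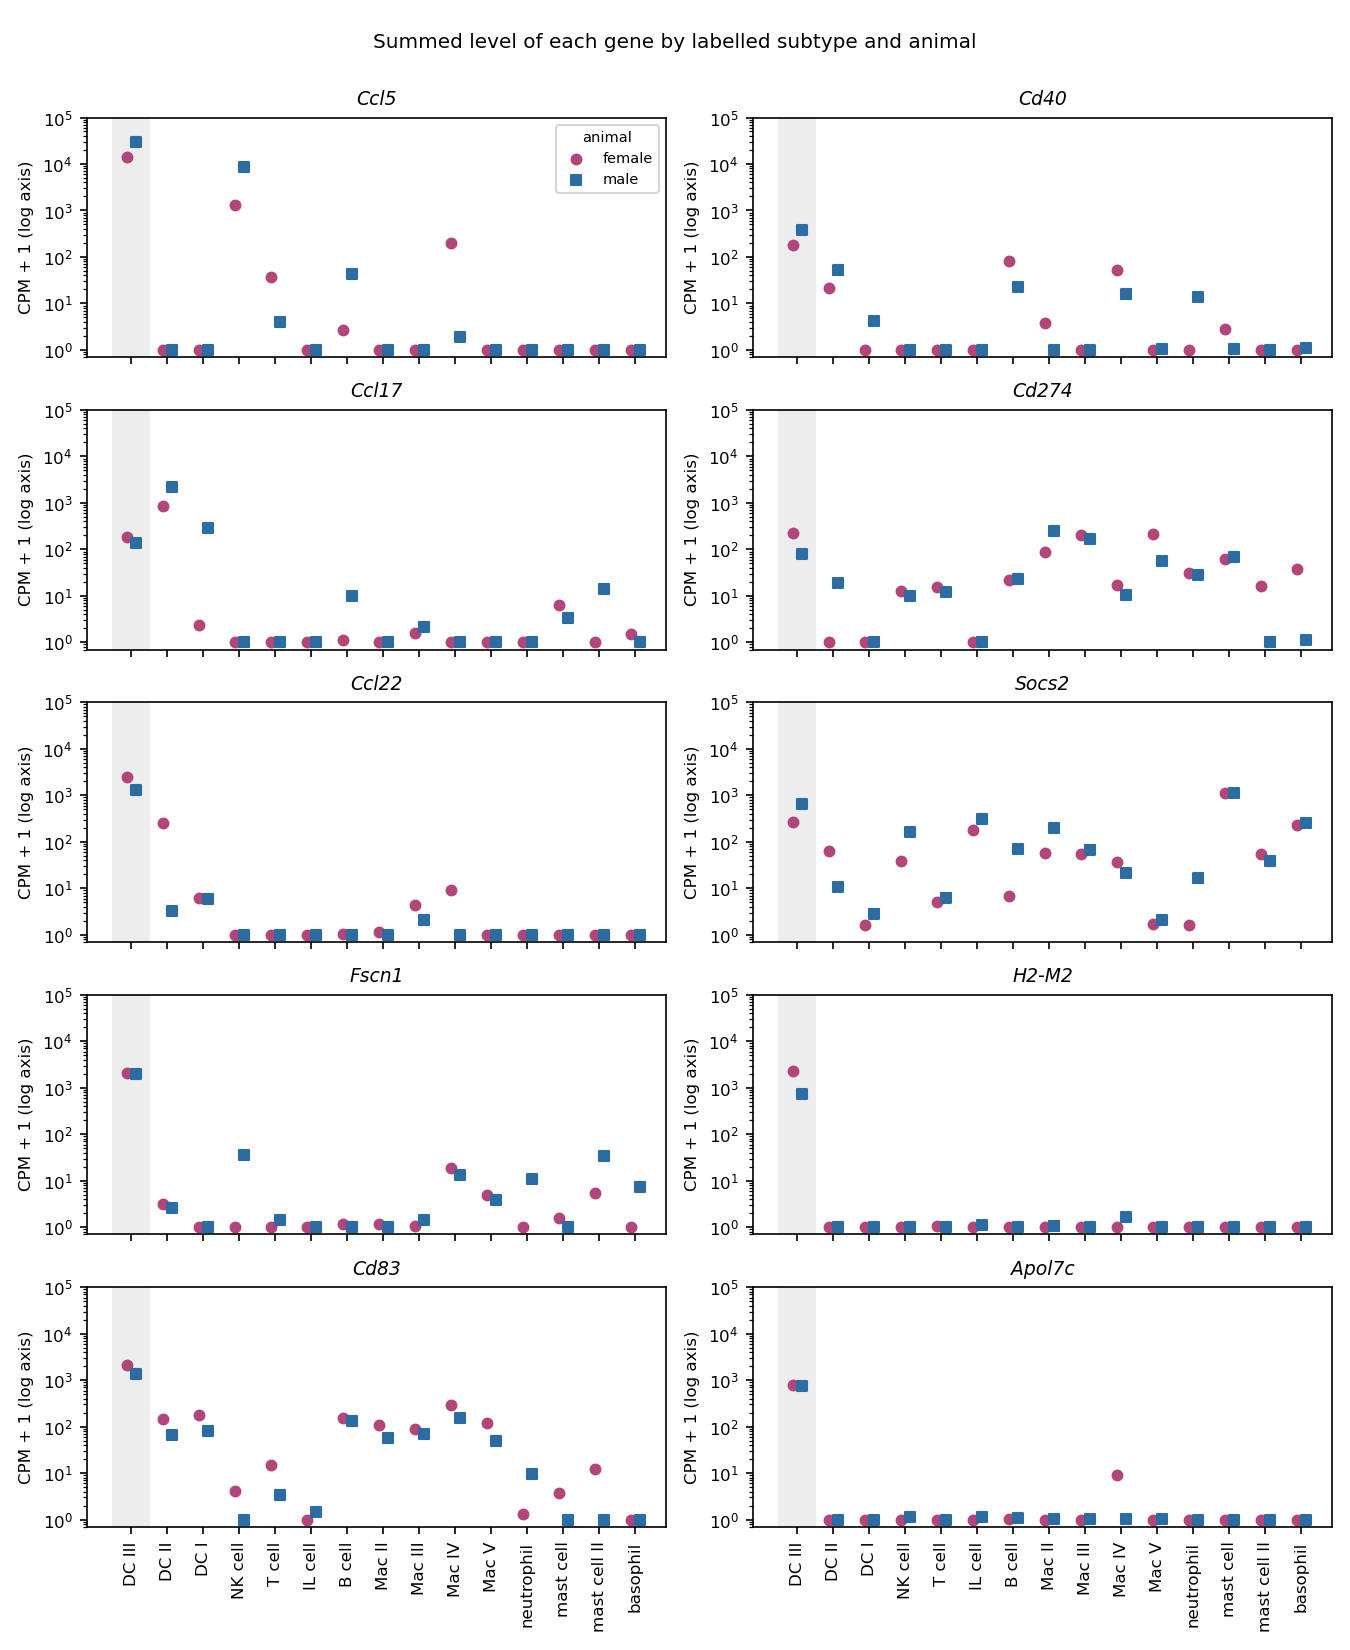
Summed level of each of the 10 genes (vertical axis, CPM + 1, logarithmic) in the 15 subtypes with at least 5 cells per animal (horizontal axis), with 1 point per animal and DC III shaded. Fscn1, H2-M2 and Apol7c stand apart in DC III, and Ccl5 is highest there with NK cells next, at 1302 (female) and 8583 CPM (male). Ccl17 peaks in DC II, Cd274 spreads over Mac II, Mac III, Mac V and DC III, and Socs2 peaks in mast cells.

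Ccl5, a chemokine that attracts T cells, NK cells and other leukocytes through receptors that include Ccr1 and Ccr3, was at 13847 CPM in female and 29487 CPM in male DC III cells. It had 0 reads in DC I and 0 in DC II, which allows up to 0.0331 CPM over both classes at 3 counts. Every DC III cell held it, from 1375 to 36309 CPM in the female (median 8370) and from 4681 to 81229 CPM in the male (median 24021). The cell with the highest value was the one with T and B cell marker reads, and without it the male library was at 25240 CPM. Values also differed between plates. The female plate sequenced in its own run (7 cells) was at 7534 CPM, the second female CD45 plate, sequenced in the run of the male plates (2 cells), at 21072 CPM, and the male plates at 27884 and 30954 CPM. Sex, animal, plate and run cannot be told apart here.

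NK cells came second, at 1302 CPM (female) and 8583 CPM (male), below both DC III libraries and above all other subtypes. Ccl5 reached 50 CPM in 3 of 5 female and 5 of 7 male NK cells. T cells were low, at 36.6 and 2.96 CPM, with 2 of 26 and 1 of 20 cells at that level. The male B cell value of 41.9 CPM and the female Mac IV value of 200.6 CPM each rested on 1 cell, at 828 and 5216 CPM, and these 3 subtypes overlapped in their order. Of the NK and T cell genes read in single DC III cells, Gzma and Prf1 had 0 reads in all 22. Cd3e and Cd3g had reads in 3 cells each, with Cd3g at 50 CPM or more in 1 of them, and Ncr1 had reads in 1 cell. The platelet genes Pf4 and Ppbp had 0 reads. The part of such RNA in the Ccl5 level was not tested beyond leaving out the 1 cell with T and B cell marker reads.

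Ccl22, a chemokine that attracts T cells bearing Ccr4, was at 2501 CPM in DC III of the female and 1293 CPM in DC III of the male. It reached 50 CPM in 20 of 22 cells (90.9%, exact 95% interval 70.8 to 98.9% after thinning each cell to 100000 reads), with the highest cell at 8043 CPM. DC II was at 252.1 CPM (female) and 2.30 CPM (male), and 98.8% of the female reads came from 1 cell, so that 1 female plate was at 675 CPM and the other at 0.966 CPM. DC I was at 5.10 and 5.03 CPM. Over both animals Ccl22 was 43.7-fold higher in DC III than in DC I and DC II together.

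Ccl17, the other ligand of Ccr4, had another pattern. It was at 841 and 2189 CPM in DC II of the female and male, above both DC III libraries, at 179.5 and 137.5 CPM. In DC II it was found in 7 of 11 female and 9 of 14 male cells (64% in all, exact 95% interval 42.5 to 82%), and in DC III in 3 of 22 cells (13.6%, interval 2.91 to 34.9%). Those 3 DC III cells were at 530, 1470 and 6485 CPM, and the other 19 held 0 reads. DC I was at 1.35 CPM (female) and 286.1 CPM (male), each from 1 cell. DC III and DC I overlapped.

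Ccl22 and Ccl17 lie close together on mouse chromosome 8, with 1 protein-coding gene between them, Cx3cl1, in the RefSeq annotation. The 250 bases before their start sites are shown because the genes share a receptor and a neighbourhood while differing in the cells that held them. They were read from RefSeq on build GRCm38.p6, on the strand of the gene, where 6 of the 10 genes were matched (Apol7c, Ccl17, Ccl22, Cd274, Fscn1 and H2-M2). Ccl22 covers chr8:94745434-94745683 and Ccl17 chr8:94810203-94810452, both on the plus strand. Capitals mark matches on either strand to GGGNNNNNCC, the loose form of sites for NF-kB, or to TTCNNNGAA, the form of sites for STAT factors.

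Ccl22: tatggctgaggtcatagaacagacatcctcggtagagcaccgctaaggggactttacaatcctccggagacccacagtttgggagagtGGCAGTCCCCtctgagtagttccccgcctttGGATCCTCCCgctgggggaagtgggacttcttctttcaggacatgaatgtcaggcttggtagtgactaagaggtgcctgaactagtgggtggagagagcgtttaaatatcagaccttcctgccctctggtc

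Ccl17: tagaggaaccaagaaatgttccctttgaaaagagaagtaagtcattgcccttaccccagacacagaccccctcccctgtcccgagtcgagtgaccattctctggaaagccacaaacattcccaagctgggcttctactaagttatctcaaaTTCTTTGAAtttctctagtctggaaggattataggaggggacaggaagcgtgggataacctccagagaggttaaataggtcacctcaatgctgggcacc

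The Ccl22 window held 2 matches to GGGNNNNNCC and none to TTCNNNGAA, and the Ccl17 window none to the first and 1 to the second. Of the 6 windows, 4 held GGGNNNNNCC (Apol7c, Ccl22, Fscn1 and H2-M2) and 1 held TTCNNNGAA. Among 32851 promoter windows of the same length the shares were 45.8% and 7.02%. The 2 motifs share no fixed overlap, and a match is only a description of the letters.

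Fscn1 encodes fascin, which bundles actin in the processes of mature dendritic cells. It was the most even of the genes between animals and cells. DC III was at 2055 CPM (female) and 2023 CPM (male), and all 22 cells held between 626 and 5485 CPM. DC I had 0 reads, and DC II 58 reads, at 2.20 and 1.63 CPM. The next subtypes were at most 34.5 CPM, in NK cells of the male, where all reads came from 1 cell. Mac IV was at 18.1 and 12.3 CPM.

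Cd83, a surface protein that stabilises MHC class II and CD86 on antigen-presenting cells, was at 2113 CPM in female and 1350 CPM in male DC III, with every cell between 231.9 and 7796 CPM. Unlike Fscn1 it was also present elsewhere. Mac IV was at 288.7 and 152.9 CPM, B cells at 153.1 and 131.98 CPM, DC I at 178.5 and 79.4 CPM and DC II at 145.9 and 63.9 CPM. Neighbours in this order overlapped, while both Mac IV libraries lay above both DC II libraries, and both DC III libraries lay above all of them. After thinning, Cd83 was found in 21 of 40 DC I cells (52.5%, interval 36.1 to 68.5%) and 8 of 25 DC II cells (32%, interval 14.9 to 53.5%).

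Cd40 is the receptor through which T cells license dendritic cells by way of Cd40lg. It was at 180.5 CPM in DC III of the female and 379.5 CPM in DC III of the male, from 11 of 22 cells (50%, interval 28.2 to 71.8%), and up to 1358 CPM in a cell. Without the 2 cells of the mesench plate the female value was 124.1 CPM. B cells were at 82.5 and 21.2 CPM, Mac IV at 52.7 and 15.2 CPM, DC II at 20.2 and 50.4 CPM and DC I at 0 and 3.16 CPM.

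Cd274, the ligand PD-L1 that restrains T cells through Pdcd1, was at 223.4 and 79.5 CPM in DC III, within the range of 3 macrophage subtypes. Mac III was at 200.9 and 166.9 CPM, Mac II at 87.9 and 253.1 CPM and Mac V at 216.6 and 55.95 CPM, and all 4 overlapped. Cd274 reached 50 CPM in 12 of 22 DC III cells, and 62.3% of its female reads there came from 1 cell. Among dendritic cells it was highest in DC III: DC I had 1 read in all, and DC II was at 0 and 17.8 CPM. In male DC II, 2 of 14 cells reached 50 CPM.

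Socs2, a suppressor of signalling by cytokine and growth hormone receptors, was at 270.8 CPM in female and 658 CPM in male DC III and reached 50 CPM in 17 of 22 cells. The male cells had a median of 739 CPM and the female cells of 175.7 CPM. Mast cells lay above DC III, at 1125 CPM in both animals, with 37 of 39 female and 17 of 20 male cells at 50 CPM or more. IL cells, at 180 and 312.7 CPM, and basophils, at 225.9 and 255.6 CPM, were next, and DC III and IL cells overlapped. DC I was at 0.618 and 1.83 CPM and DC II at 61.6 and 9.75 CPM.

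H2-M2, an MHC class I-like gene of the M region, was at 2253 CPM in DC III of the female and 725 CPM in DC III of the male, in 18 of 22 cells and up to 7733 CPM. DC I and DC II had 0 reads, and no other subtype passed 0.636 CPM. On the second female CD45 plate, with 2 cells, it was at 225.5 CPM, against 3852 CPM on the first. Apol7c, of the apolipoprotein L family, was at 782 and 732 CPM, in 14 of 22 cells; the highest cells held 4285 CPM (female) and 3203 CPM (male), and 66.4% of the male reads came from 1 cell. It had 0 reads in DC I and DC II, and its 8.35 CPM in female Mac IV came from 1 cell, at 452 CPM. Both belong to families of similar genes, and how reads shared with relatives were counted is not given in the sources used here.

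The window before H2-M2, chr17:37483555-37483804 on the minus strand of GRCm38.p6, is shown because reads of this gene were almost limited to DC III. Capitals again mark GGGNNNNNCC, with 2 matches.

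H2-M2: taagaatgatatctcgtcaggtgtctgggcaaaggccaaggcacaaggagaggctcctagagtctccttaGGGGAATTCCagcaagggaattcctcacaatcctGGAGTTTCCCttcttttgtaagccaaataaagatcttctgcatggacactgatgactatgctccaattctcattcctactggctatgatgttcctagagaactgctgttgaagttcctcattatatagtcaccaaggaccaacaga

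Per cell, the 10 genes were counted after each cell was thinned to 100000 reads, a gene counting with at least 5 reads. DC III cells held a median of 7 of the 10 (from 5 to 10), and the median was 7 in each animal. Only 1 cell, from the female, held all 10. DC I cells held at most 2 and DC II cells at most 5. Of 1156 cells outside DC III, 1 held 5 or more (0.0865%, interval 0.00219 to 0.481%), a DC II cell of the female with Ccl17 at 1439, Ccl22 at 1611, Cd83 at 687, Cd40 at 124.1 and Socs2 at 94.2 CPM. That cell had 0 reads of Ccl5 and of Ccr7, and Relb at 209.4 CPM. A total of 6 cells held 4 or more: 3 DC II, 2 Mac IV and 1 B cell with Ccl5 at 828 and Ccr7 at 569 CPM. The genes were chosen for their levels in DC III, so these counts are a description. The interval takes cells as independent, which cells of 1 animal are not.

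**Figure D2:**
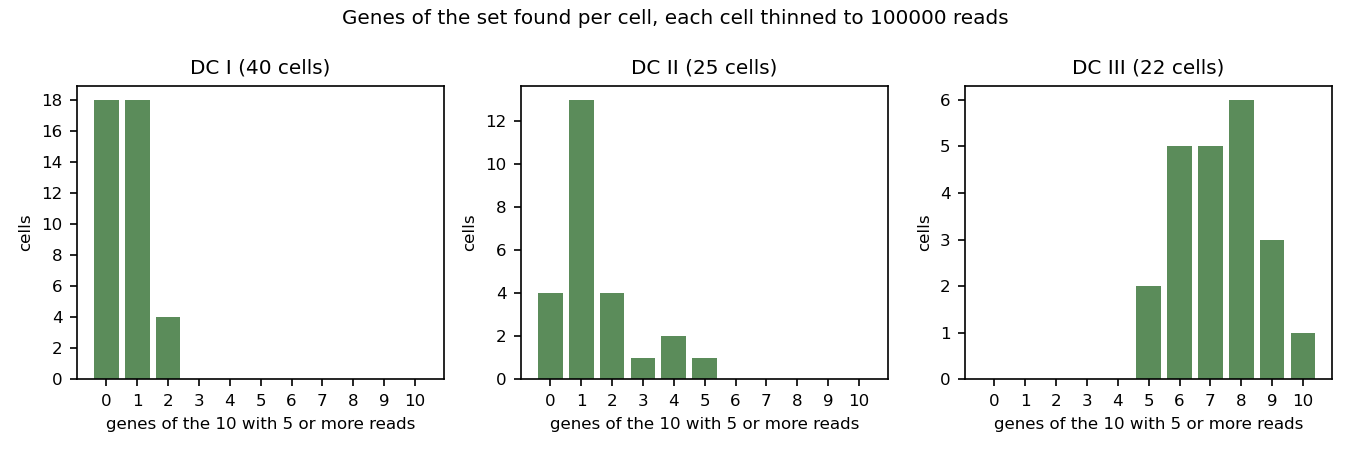
Number of cells (vertical axis) by how many of the 10 genes had at least 5 reads after thinning to 100000 reads (horizontal axis), for DC I, DC II and DC III. The DC III cells lie between 5 and 10 genes, the DC I cells between 0 and 2 and the DC II cells between 0 and 5.

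**Figure D3:**
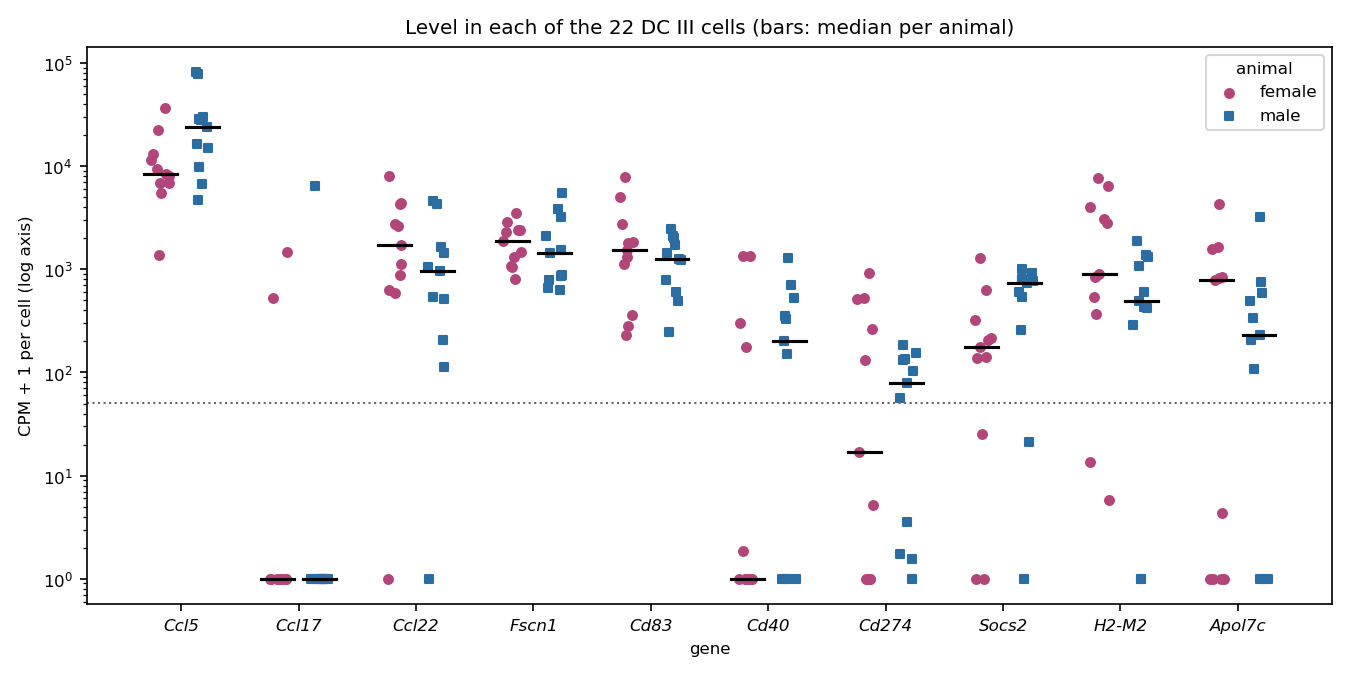
Level of each gene in the 22 DC III cells (vertical axis, CPM + 1, logarithmic), with 1 point per cell, a bar at the median of each animal and a dotted line at 50 CPM. Ccl5, Fscn1 and Cd83 lie above the line in all 22 cells, Cd40 and Cd274 in 11 and 12, and Ccl17 in 3.

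Within DC III the genes did not rise and fall together. Over the 22 cells the 45 pairs of genes had a median Spearman rho of -0.00889, with 21 pairs above 0 and 21 pairs of the same sign in both animals. The lowest rho was that of Ccl5 with Ccl22, at -0.64 over all cells, -0.51 over female and -0.45 over male cells. The highest was that of Cd40 with Cd274, at 0.38 (0.29 and 0.45). Ccl5 also had negative values with Ccl17 (-0.55), Cd83 (-0.47) and Cd40 (-0.36). The cells share animals, plates and the scaling to their own total, in which Ccl5 reaches 81229 CPM, and the rho of Ccl5 with the reads per cell was 0.43. These values are descriptions, and the part of depth and scaling in them was not tested.

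**Figure D4:**
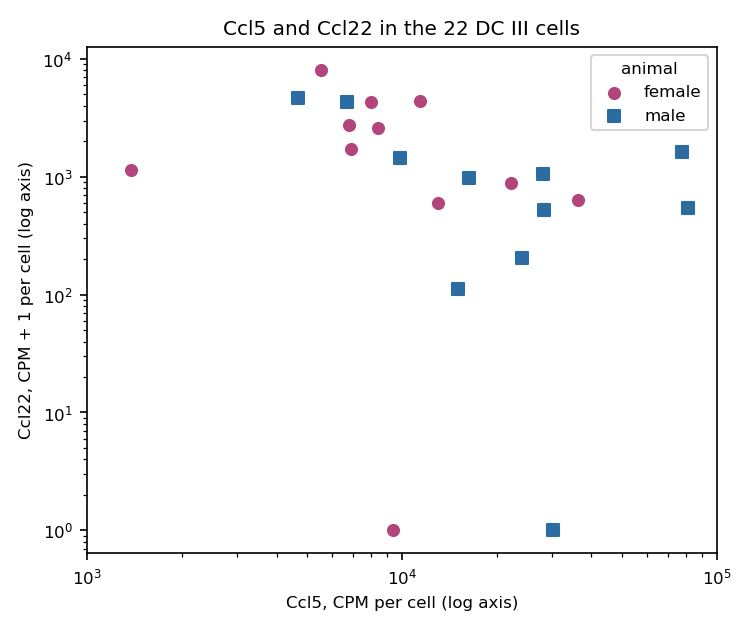
Ccl22 (vertical axis, CPM + 1, logarithmic) against Ccl5 (horizontal axis, CPM, logarithmic) in each of the 22 DC III cells. The 5 cells with Ccl22 at 4288 CPM or more had Ccl5 at 11412 CPM or less, and 2 cells held no Ccl22 reads.

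Differences between subtypes that had not chosen the genes were tested on counts summed per animal, with the quasi-likelihood test of edgeR and Benjamini-Hochberg adjustment over 15600 genes. All 10 genes were in the fit, H2-M2 and Apol7c by way of DC III, so a gene without reads in a pair of subtypes could not be called there. Between DC I and DC II, Ccl5, H2-M2 and Apol7c had 0 reads in both, and 0 of the other 7 genes were called, where 0.244% of all genes were. At an unadjusted p under 0.05 there were 3, all higher in DC II, and DESeq2 called the same 3: Socs2 (log2 fold change of DC I over DC II -4.71 ± 1.32, SE), Cd274 and Fscn1. For Socs2 the adjusted p was 0.248 with edgeR and ran from 0.000898 with DESeq2 to 0.557 over the other settings. For Cd274 these values were 0.352, 0.00223 and 0.469, and for Fscn1 0.524, 1.66e-11 and 0.624. Their levels in DC II were low, and Fscn1 and Cd274 had 0 and 1 reads in DC I. For Ccl17 the log2 fold change was -3.19 ± 2.24 (edgeR adjusted p = 0.816), with the male DC I library at 286.1 CPM, all from 1 cell.

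The other comparisons likewise gave no call by edgeR. Between T cells and B cells Ccl22, H2-M2 and Apol7c had 1, 3 and 3 reads in all, and nothing is read from them. None of the other genes was called (background 0.0962%), with 3 at an unadjusted p under 0.05, Ccl17, Cd40 and Socs2. DESeq2 called Cd40, lower in T cells, which had 0 reads against 4938 in B cells (edgeR adjusted p = 0.366, and from 5.73e-16 with DESeq2 to 0.426 over the other settings). Ccl5 was not separated there, with a log2 fold change of -0.01 ± 1.68 (SE). Between mast cells and basophils Ccl22, H2-M2 and Apol7c had 0 reads and Ccl5 had 1, and 0 of the other 6 were called (background 1.71%), with 1 at an unadjusted p under 0.05, Cd83, for which DESeq2 gave an adjusted p of 0.00759 (edgeR 0.171, and up to 0.196 over the other settings) at 2.78 CPM in female mast cells, from 1 cell, with 0 reads in male mast cells and in basophils. Socs2 was higher in mast cells in both animals with a log2 fold change of 2.02 ± 1.17 (SE, edgeR adjusted p = 0.411). Between Mac III and Mac IV none of the genes other than H2-M2 and Apol7c was called (background 0.263%), with Ccl5, Ccl17, Fscn1 and Cd40 at an unadjusted p under 0.05. H2-M2 and Apol7c also fell under it, but H2-M2 was at most 0.636 CPM in these libraries and nearly all Apol7c reads came from 1 Mac IV cell, so nothing is read from them.

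DESeq2 called 2 of these, Ccl5 and Cd40, both higher in Mac IV. For Ccl5 the edgeR adjusted p was 0.1 in the fit of all subtypes, from 0.00826 with DESeq2 to 0.18 over the other settings, and 0.0327 without the male Mac IV library; the female Mac IV level rested on 1 cell. Cd274 stood the other way, at 200.9 and 166.9 CPM in Mac III against 16.3 and 9.45 CPM in Mac IV (log2 fold change 3.89 ± 2.07, SE, edgeR adjusted p = 0.694), and both Mac III libraries lay above both Mac IV libraries. With Mac III and Mac IV alone in the fit, edgeR called Cd274 (adjusted p = 0.0043) and Cd40 (0.00947), Fscn1 (0.0343) and Ccl5 (0.0472), the last 3 higher in Mac IV. With 2 animals per subtype and a common coefficient of variation of 1.15, the spread between the summed libraries of a subtype was wide. Animal, sex, plate, run and the few cells sampled cannot be told apart in it.

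Beyond the 10 genes, 24 others that textbooks link to mature dendritic cells were read in the same classes. Among them are the homing receptor Ccr7, NF-kB subunits and their targets, cytokines, and ligands of T cell receptors. Of 23 tested, 12 were called higher in DC III than in DC I and DC II averaged, and 0 lower, where 2.79% of all genes were called higher and 4.43% lower (edgeR, adjusted over 15600 genes). Their median log2 fold change was 4.84, or 4.83 with the 1 gene without reads in DC I and DC II set to its lower bound, against -0.41 over all genes tested. The list was drawn up with earlier results of these cells known, and DC III is the class on which the 10 genes were chosen, so the count describes that labelled class and supports nothing further. Without 1 library in turn the count was 7 to 9, at 7 without either DC I library or the male DC II library, and it was 7 against DC I alone and 4 against DC II alone.

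Ccr7, which guides mature dendritic cells to lymph nodes, was at 7281 and 6443 CPM in DC III, at 0 reads in DC I, and at 0 and 93.4 CPM in DC II (adjusted p = 0.00787; 0.157 against DC II alone). Il12b, a subunit of the cytokines that drive T helper cell responses, was at 1584 and 1639 CPM against 1 read in DC I and DC II together (adjusted p = 0.000451). Cacnb3, a calcium channel subunit, was at 2668 and 1254 CPM against 3 reads (adjusted p = 0.000184). Both DC III libraries were above all 4 others for each of these 3 genes.

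Serpinb9, an inhibitor of granzyme B, was at 1720 and 2002 CPM, with a log2 fold change of 8.88 ± 2.49 (SE, edgeR adjusted p = 0.0357). It was not called against DC I alone (edgeR adjusted p = 0.197) or DC II alone (0.106). Its call was lost without each of the 6 libraries in turn, at adjusted p of 0.0688 to 0.152. Samsn1, an adaptor expressed in blood cells, was at 1715 and 1858 CPM (log2 fold change 6.82 ± 0.94, adjusted p = 0.000154), and Tmem123, a membrane protein of dendritic cells also called porimin, at 3015 and 2244 CPM (5.79 ± 0.95, adjusted p = 0.000714). Relb, at 855 and 1040 CPM, Nfkb2, at 550 and 492 CPM, and Traf1, at 1709 and 1568 CPM, were called as well (adjusted p = 0.00595, 0.000769 and 0.0412). Against DC II alone none of Relb, Nfkb2 and Traf1 was called (edgeR adjusted p = 0.075, 0.0539 and 0.192). Traf1 was also not called against DC I alone (0.111). Relb, Nfkb2 and Traf1 belong to the non-canonical branch of NF-kB signalling or are its targets.

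In 18 of the 23 both DC III libraries lay above all 4 libraries of DC I and DC II, a pattern found in 8.08% of all genes. The 18 include Il4i1, at only 1.30 and 0.0639 CPM in DC III. Other members of the list did not follow or were at low levels. The costimulator Cd86 was at 71.7 and 14.9 CPM in DC III, below DC I (265.3 and 182.95 CPM) and DC II (177.02 and 92.2 CPM), with a log2 fold change of -1.82 ± 1.39 (SE, edgeR adjusted p = 0.486), and Cd80 was at 0 and 44.8 CPM. The cytokine subunit Ebi3 was at 45.3 and 162.5 CPM, within the range of the other classes. Pdcd1lg2, the second ligand of Pdcd1, was called at a low level, 32.4 and 13.2 CPM against 1 read. Ido1, an enzyme of tryptophan breakdown, had 0 reads in all 3 classes, and Il4i1 14 reads in DC III. Outside dendritic cells Ccr7 was high in T cells, at 2482 and 1798 CPM, and in B cells, at 587 and 692 CPM.

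The genes most like the set over the 30 summed libraries were ranked by Pearson r on log2(CPM + 1) among 8149 genes. Those nearest to the mean profile of the 10 were Nbl1 (r = 0.951), Plppr4 (0.935), Olfr109 (0.927), Lad1 (0.926), Cacnb3 (0.925) and Il12b (0.922), each at most 2.52 CPM in DC I, DC II and NK cells. Within the set, r with that mean ran from 0.357 for Socs2 and 0.359 for Cd274 to 0.924 for H2-M2 and 0.943 for Apol7c. Each of the 10 is itself part of that mean, which raises its r. The values within the set are therefore not comparable with those of genes outside it. Those nearest to Ccl5 alone were Dscaml1 (0.788), Serpinb9 (0.766) and Zfp872 (0.763). Serpinb9 shared with Ccl5 a level in NK cells, at 507 and 181.3 CPM. These values are descriptions, since the libraries share animals, and only Nbl1 remained among the 6 genes nearest the mean with Spearman rho, as it did without the DC III libraries. For Ccl5 none of the 3 remained in either setting: Spearman rho gave Jmjd7, AW112010 and Cox11, and the libraries without DC III gave Cd160, Ncr1 and Xcl1, genes known from NK cells.

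Some receptors and ligands of the 10 genes' products were read by level only. Ccr1, a receptor of Ccl5, was highest in basophils (650.2 and 193.2 CPM), Mac IV (626 and 300.3 CPM) and neutrophils (543 and 386.9 CPM), and Ccr3, another, in basophils (152.96 and 87.5 CPM). DC III itself had 0 reads of Ccr1 and Ccr3. Ccr4, the receptor of Ccl17 and Ccl22, passed 20 CPM only in IL cells, at 53.2 and 73.7 CPM, from 2 cells in each animal at 50 CPM or more.

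Cd40lg was highest in T cells (117.9 and 112.9 CPM), and Pdcd1 in IL cells (267.7 and 242.03 CPM). Ackr2, which removes chemokines, stayed at or below 14.9 CPM, in Mac IV. Of the receptor for the growth factor Csf2, the common chain Csf2rb was at 1135 and 442 CPM in DC III and highest in basophils (1919 and 2086 CPM), and Csf2ra was at 52.9 and 199.8 CPM in DC III, below both DC I libraries (270.1 and 459 CPM) and both DC II libraries (628 and 559.8 CPM).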

How the data were processed

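Read counts per gene and cell were used as the authors deposited them, as whole numbers that are not normalised. The submitters' processing notes name STAR 2.5.2b, HTSeq 0.10 and the build GRCh38, a human build, with no role or order; the mouse build, the annotation and the use of strand are not given in the sources used here, so reads of overlapping or near-identical genes cannot be separated. No molecular identifiers are named, so reads of 1 molecule were counted separately. How the subtype labels were assigned is not given in the sources used here; where they rest on the same expression, comparisons of subtypes describe the labelled classes.

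The 10 genes and the gene lists were chosen with earlier results of these data known. Counts were summed per animal and subtype into 30 libraries of 6024429 to 235566546 reads (15 subtypes, each with 5 or more cells per animal; Mac I, 1 cell, was left out) and scaled to a total of 1000000 reads (CPM). edgeR 4.0.16 (R 4.3.3; quasi-likelihood test, TMM, filterByExpr, all 15 subtypes in 1 fit) was the main test, adjusted by Benjamini-Hochberg over 15600 genes at a threshold of 0.05, and DESeq2 1.42.0 an alternative. The SE given with an edgeR log2 fold change is its absolute value divided by the square root of the F statistic of the test. The scripts were checked on simulated counts with a smaller spread than the data, so error rates at the spread seen here were not checked. The libraries of 1 animal form pairs across subtypes by design; the median correlation of their deviations from the subtype means was 0.0249 (from -0.06 to 0.0759 over 105 pairs of subtypes). With 1 animal per sex, p-values measure only the spread between the summed libraries of these 2 animals, which includes that of the cells sampled.

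Cells were thinned at random to 100000 reads for shares of cells, and 5 reads counted as presence; unthinned values used 50 CPM. Intervals are exact Clopper-Pearson at 95%. The 0 reads of Ccl5 in DC I and DC II come with the limit that 3 counts set, and other counts of 0 are given without it. The intervals and that limit cover counting error only, and the intervals take cells as independent. All 10 genes were named, and of the maturation list the called genes with the 6 largest fold changes in each direction, at least 50 CPM in the higher class and the same direction in both animals; other genes of that list were named after their values were seen. Genes most like the set were the 6, and for Ccl5 the 3, with the highest Pearson r. No doublet caller was run on these sorted wells. Alternatives were another normalisation, no filter, DESeq2, the animal as a block, cells scaled to the same total, 1 sequencing run, CD45 plates only, fewer subtypes in the fit and 1 library left out; leaving out the cell with T and B cell markers was added after seeing the data.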

Additional observations from a re-analysis of the deposited data

Results flagged for a closer look

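Ccl22 differed between DC I and DC II in opposite directions in the 2 animals: DC I minus DC II was -247 CPM (female) and 2.73 CPM (male). Whether the animals differ was not tested, and 98.8% of the female DC II reads came from 1 cell. The male difference was between 5.03 CPM in DC I, from 1 cell, and 2.30 CPM in DC II.

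The single Mac I cell, from the male and outside every comparison, held reads of 3 of the 10 genes: Fscn1 at 42.2 CPM, Cd83 at 126.6 CPM and Socs2 at 138.1 CPM.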

How the results depend on the processing

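Of the maturation list, 12 genes were called higher in DC III, with 7 against DC I alone and 4 against DC II alone. Fewer libraries enter those comparisons, and the cause of the lower counts was not tested. DESeq2 called 3 of the 10 genes between DC I and DC II, 1 between T and B cells, 1 between mast cells and basophils and 2 between Mac III and Mac IV, where edgeR called 0. With Mac III and Mac IV alone in the fit edgeR called 4, and without 1 library 0 to 1; the cause was not tested. The log2 fold change of Cd274 between DC I and DC II ranged from -11.61 to 2.89 without 1 library; the 2.89 came without the male DC II library, which held all DC II reads of the gene. Cells outside DC III with at least 5 of the genes numbered 3 at 1 read, 0 at 20 reads and 0 without the female. The median r of the 6 genes nearest the set was 0.926, and 0.955 with a pseudocount of 10, 0.557 as Spearman rho and 0.309 without DC III. With the animal as a replicate block, that is, a paired fit, the list had 14 calls higher in DC III and the 10 genes 0 in each other comparison; no call of a gene named with an edgeR call was lost under the block.

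Over all genes, in the order DC III against DC I and DC II, DC I against DC II, T against B cells, mast cells against basophils and Mac III against Mac IV, edgeR called 1126, 38 and 15 genes, 1.71% of genes, and 41 genes, and DESeq2 3851, 1131, 966, 2491 and 486. Run DC35 alone gave 604, 17, 31, 97 and 9. Only the compared subtypes gave 564 in the first comparison, 1.10% of genes against 0.0962% between T and B cells, and 1711 between Mac III and Mac IV, and DC I or DC II alone 629 and 715 in the first. Cells scaled to 1 total gave 24 between DC I and DC II, with 0 against 4 higher in DC I, and 13 against 8 of 41 higher in Mac III. Without 1 library the ranges were 564 to 769, 4 to 29, 0 to 11, 0.587% to 1.04% of genes, and 1 to 17. With 2 animals per subtype, the precision rests on the spread between their summed libraries, and no limit of detection was measured.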
